A study of Mus musculus with 12 samples.

Results

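A set of 10 genes of regulated cell death (Ripk1, Ripk3, Mlkl, Zbp1, Casp8, Casp4, Gsdmd, Fas, Pmaip1 and Cflar) was followed in mouse L929 cells, an established fibroblast line that is widely used to study necroptosis. They were chosen by name as genes of necroptosis, pyroptosis and death signalling, although earlier results of these data were known by then. They are 10 of the 54532 genes in the count files. The series holds 12 libraries of polyA-selected RNA, 2 under each of the labels HT-DNA, hpRNA, cGAMP, G3-YSD, HSV and mock. HT-DNA, hpRNA, G3-YSD and HSV are described as transfections and cGAMP, the messenger with which cGAS activates STING, as a stimulation. Mock is described as untreated, and whether it received transfection reagent is not given in the sources used here. RNA was taken at 6 hours for all labels, no genotype is given, and all cells carry the same cell line name. The labels call the transfections duplicates but do not say whether the cultures were separate, so the p-values measure the spread between libraries, which may be technical. The digits in the HSV titles were read as replicate numbers, although they could also stand for virus types.

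Necroptosis is a lytic death in which the kinase RIPK3 phosphorylates the pseudokinase MLKL, which then permeabilises the plasma membrane. RIPK3 is reached through RIPK1 downstream of death receptors, or through ZBP1, a sensor of left-handed nucleic acids that interferon induces. Caspase-8 with its partner cFLIP, the product of Cflar, restrains this route, while inflammatory caspases such as that of Casp4 cut gasdermin D to give pyroptosis. L929 cells are known for dying by necroptosis when tumour necrosis factor is given.

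Of the 10 members, 9 passed the filter on low counts and were tested, and Pmaip1 did not. Total counts lay between 12650790 and 18912400 per library. The libraries went against their labels. Each library was closest to one of another label with the same number, in 6 reciprocal pairs (HT-DNA with cGAMP, hpRNA with mock, G3-YSD with HSV). Squared differences in counts were scaled to counting noise gene by gene, and the median over genes was taken. In these pairs it was 1.42 to 2.08 times the median under counting noise alone. For the 2 libraries of one label it was 3.32 to 85.4 times. Levels of the members are therefore given library by library, and no library was moved. The labels were used as given, and whether any were exchanged was not tested, so each value against mock holds only if they are right. Between 26241 and 26496 genes were detected in G3-YSD 1 and HSV 1 and between 23909 and 23997 in G3-YSD 2 and HSV 2, against 21635 to 22550 in the other 8 libraries. Of 12 fibroblast markers, 11 had a median of at least 1 CPM (counts scaled to a common library size, here on edgeR's TMM scale), with Vim at 2283 CPM, and Thy1 was at 0.177 CPM. Their summed level was 4927 and 8008 CPM in G3-YSD 1 and 2 and 4855 and 7992 CPM in HSV 1 and 2, against 5362 to 5813 CPM in the other 8 libraries. The source name differs in wording between cGAMP, G3-YSD and HSV on one side and HT-DNA, hpRNA and mock on the other, so a batch that follows the wording cannot be told apart from cGAMP, G3-YSD or HSV treatment when these are set against mock.

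Promoter windows from RefSeq (build GRCm38.p6, 250 bases before to 50 after the start) were matched for 7 of the 10 members, all but Zbp1, Gsdmd and Pmaip1. The 3 shown were chosen after their values were seen, all from members high in G3-YSD 1 and HSV 1, as an example each of a window with NF-kB letters, with interferon element letters and with none. Capitals mark matches to the letters GAAANNGAAA (an interferon-stimulated response element), TTCNNNGAA (a STAT element) or GGGNNTTNCC (an NF-kB element), searched on both strands, where matches to one motif may overlap each other.
Casp4 (chr9:5308599-5308898, plus strand): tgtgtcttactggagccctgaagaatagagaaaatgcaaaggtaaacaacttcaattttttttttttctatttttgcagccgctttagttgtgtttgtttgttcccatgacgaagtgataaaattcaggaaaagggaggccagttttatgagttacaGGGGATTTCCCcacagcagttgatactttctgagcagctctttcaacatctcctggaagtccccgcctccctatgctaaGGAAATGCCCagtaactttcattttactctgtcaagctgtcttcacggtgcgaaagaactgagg
Cflar (chr1:58711241-58711540, plus strand): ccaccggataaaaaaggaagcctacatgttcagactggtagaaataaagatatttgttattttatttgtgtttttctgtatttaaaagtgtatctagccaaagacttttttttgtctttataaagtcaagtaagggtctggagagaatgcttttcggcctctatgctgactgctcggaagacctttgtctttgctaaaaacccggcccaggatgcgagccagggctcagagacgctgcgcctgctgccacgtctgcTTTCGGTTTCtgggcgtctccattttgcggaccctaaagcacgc
Mlkl (chr8:111338156-111338455, minus strand): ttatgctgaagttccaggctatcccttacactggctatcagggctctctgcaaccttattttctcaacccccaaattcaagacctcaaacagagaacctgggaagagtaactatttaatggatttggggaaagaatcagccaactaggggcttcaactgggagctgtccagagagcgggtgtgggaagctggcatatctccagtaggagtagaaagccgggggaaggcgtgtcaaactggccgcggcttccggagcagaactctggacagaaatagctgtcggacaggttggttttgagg
The interferon element was found in the Cflar window and in the second of the 2 Ripk1 windows, as in 3.44% of all 32851 promoter windows. NF-kB letters were found in both Casp4 windows, which overlap, and in 4.79% of all windows. STAT letters were found in the Fas window and in the second Ripk1 window, against 8.3% of all. The windows of Mlkl, Ripk3 and Casp8 held none of the 3 motifs, which says only that these letters are not in these windows.

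Zbp1, the Z-nucleic acid sensor (ENSMUSG00000027514, chromosome 2, 173206612 to 173218923, mm10), varied more between libraries than any other tested member. It stood at 2.86 and 20.4 CPM in HT-DNA 1 and 2, at 0.399 and 11.2 CPM in hpRNA 1 and 2, and at 3.68 and 21.1 CPM in cGAMP 1 and 2. It reached 166 CPM in G3-YSD 1 and 166 CPM in HSV 1, but 0.769 CPM in G3-YSD 2 and 1.32 CPM in HSV 2, against 0.0568 and 14.7 CPM in mock 1 and 2. G3-YSD 1 and HSV 1 thus lay above every other library, while G3-YSD 2 and HSV 2 lay between the 2 mock libraries, so no stimulus was separated from mock. Behind these levels stood 2808 counts in G3-YSD 1 and 10 in G3-YSD 2, and 1 count in mock 1 against 241 in mock 2. The ratio of the mock libraries was 259 with an exact 95% interval of 46.0 to 10257, and that of the G3-YSD libraries was 216 with an interval of 117 to 450. These intervals cover counting error only, since reads without molecular identifiers are not independent molecules. In RNA from whole cultures, fewer cells that express a gene and less RNA per cell cannot be told apart.

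Ifit1, an interferon-induced antiviral gene, marked the same libraries. It stood at 1805 and 1696 CPM in G3-YSD 1 and HSV 1 and at 65.7 and 54.9 CPM in G3-YSD 2 and HSV 2, against 2.10 and 486 CPM in mock 1 and 2. In the other libraries it was 153 and 661 CPM (HT-DNA 1 and 2), 2.28 and 441 CPM (hpRNA 1 and 2) and 178 and 672 CPM (cGAMP 1 and 2). Across the 12 libraries the log2 CPM of Ifit1 had a Pearson correlation of 0.93 with Zbp1, 0.86 with Mlkl, 0.75 with Cflar, 0.74 with Casp4 and 0.55 with Fas. It was 0.41 for Ripk1, 0.30 for Casp8, 0.04 for Gsdmd and -0.35 for Ripk3. These values are descriptions, since the libraries come in near-identical pairs and share a scaling.

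**Figure D1:**
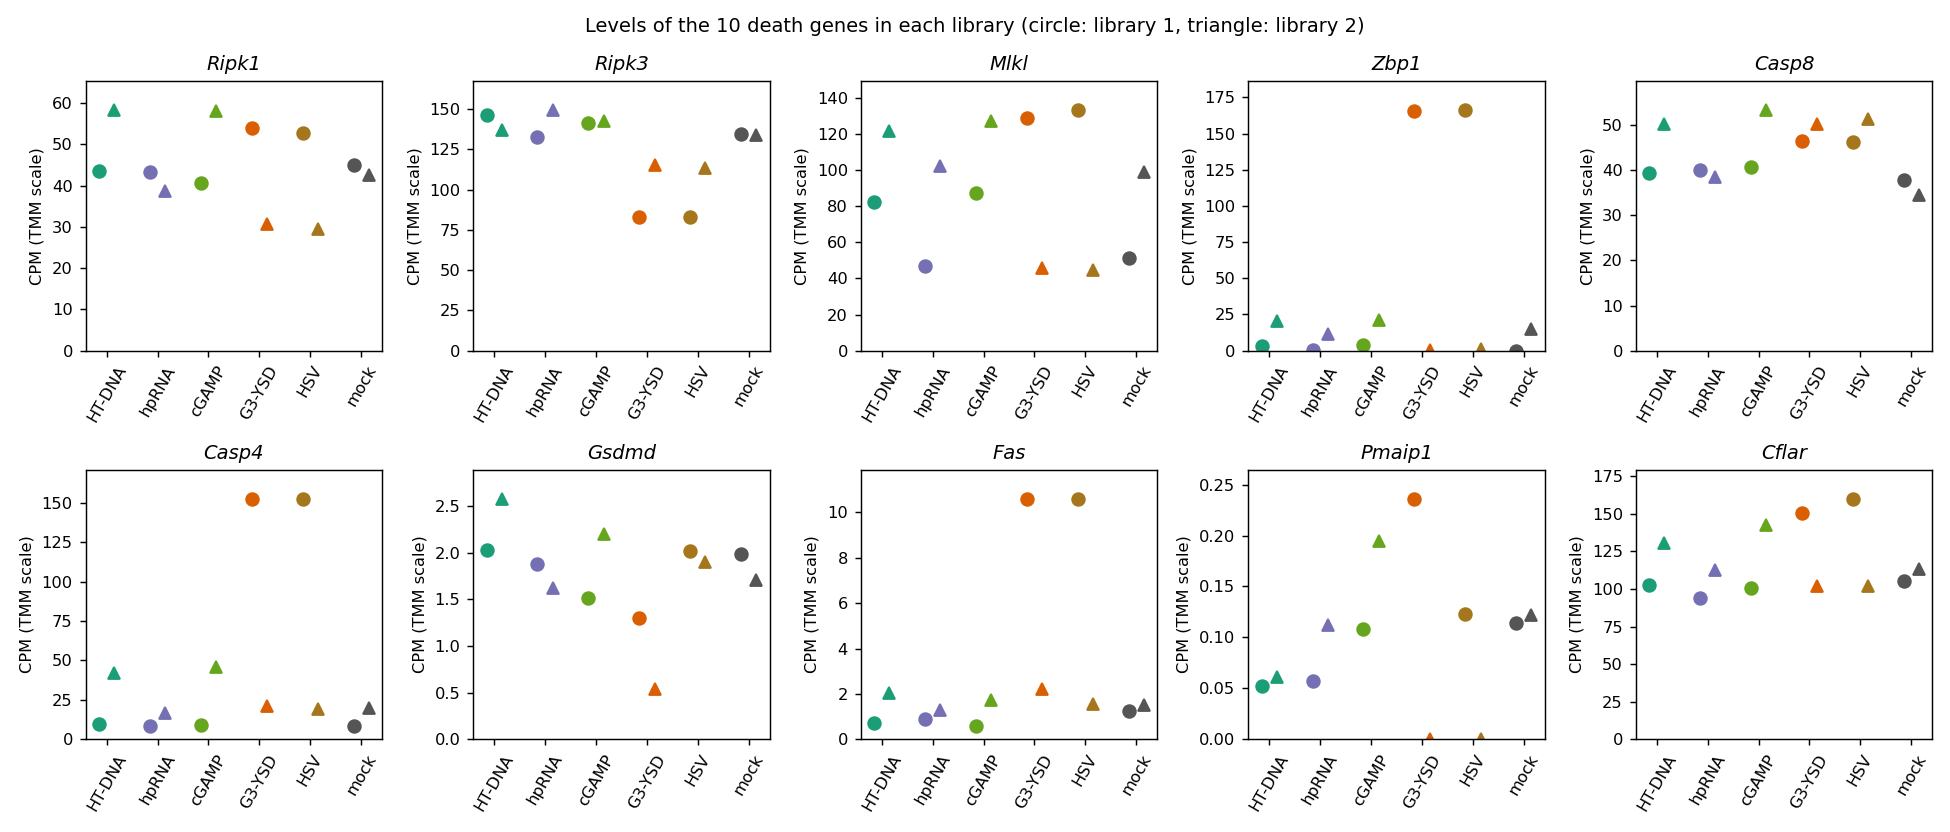
CPM of each of the 10 members (y axis, from 0) in the 2 libraries of each label (x axis; circle for library 1, triangle for library 2). Zbp1, Casp4 and Fas stand apart in G3-YSD 1 and HSV 1, and Ripk3 is lower in all 4 G3-YSD and HSV libraries than in the other 8.

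Mlkl, the executioner of necroptosis (ENSMUSG00000012519, chromosome 8, 111311797 to 111338177), followed the same libraries over a narrower range. Its level was 82.5 and 121 CPM in HT-DNA 1 and 2, 46.9 and 102 CPM in hpRNA 1 and 2, and 87.2 and 127 CPM in cGAMP 1 and 2. It was 129 and 45.9 CPM in G3-YSD 1 and 2 and 133 and 44.4 CPM in HSV 1 and 2, against 51.4 and 98.9 CPM in mock 1 and 2. Every stimulus overlapped mock. The highest library, HSV 1, and the lowest, HSV 2, carry the same label, and the lowest 4 (HSV 2, G3-YSD 2, hpRNA 1 and mock 1) lay between 44.4 and 51.4 CPM.

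Ripk3, the kinase that phosphorylates MLKL (ENSMUSG00000022221, chromosome 14, 55784995 to 55788865), behaved otherwise. It stood at 83.3 and 115 CPM in G3-YSD 1 and 2 and at 82.9 and 114 CPM in HSV 1 and 2, against 135 and 134 CPM in mock 1 and 2. HT-DNA 1 and 2 had 147 and 137 CPM, hpRNA 1 and 2 had 133 and 150 CPM, and cGAMP 1 and 2 had 141 and 143 CPM. All 4 G3-YSD and HSV libraries were below the other 8, and unlike Zbp1 and Mlkl, Ripk3 was lower in G3-YSD 1 and HSV 1 than in G3-YSD 2 and HSV 2. Ripk1, the upstream kinase and scaffold (ENSMUSG00000021408, chromosome 13, 34002363 to 34037147), lay at 53.9 and 30.8 CPM in G3-YSD 1 and 2 and at 52.7 and 29.6 CPM in HSV 1 and 2, against 44.9 and 42.5 CPM in mock 1 and 2. In HT-DNA 1 and 2 it was 43.6 and 58.3 CPM, in hpRNA 1 and 2 43.3 and 38.6 CPM, and in cGAMP 1 and 2 40.6 and 58.1 CPM. The G3-YSD and HSV libraries of Ripk1 thus lay on both sides of mock. Exons of Ripk1 share 241 bases with Serpinb6a on the opposite strand, which had 3864 to 5504 counts a library. They share 511 bases with Gm17084, a pseudogene on the same strand with 0 counts in every library. The strand setting of the counting is not given in the sources used here.

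Casp8, the initiator caspase that cuts RIPK1 and RIPK3 (ENSMUSG00000026029, chromosome 1, 58795374 to 58847503), was the steadiest member, with a 1.54-fold range. It stood at 39.4 and 50.4 CPM in HT-DNA 1 and 2, at 40.2 and 38.5 CPM in hpRNA 1 and 2, and at 40.7 and 53.4 CPM in cGAMP 1 and 2. It had 46.6 and 50.2 CPM in G3-YSD 1 and 2 and 46.2 and 51.3 CPM in HSV 1 and 2, against 37.9 and 34.6 CPM in mock 1 and 2. All 10 stimulus libraries lay above both mock libraries. The 5 comparisons share the mock libraries, so these are not 5 separate observations. Cflar (ENSMUSG00000026031, chromosome 1, 58711508 to 58758884) had 150 and 102 CPM in G3-YSD 1 and 2 and 160 and 102 CPM in HSV 1 and 2, against 105 and 113 CPM in mock 1 and 2. HT-DNA 1 and 2 had 102 and 130 CPM, hpRNA 1 and 2 94.1 and 113 CPM, and cGAMP 1 and 2 101 and 143 CPM. Cflar was above both mock libraries in HT-DNA 2, cGAMP 2, G3-YSD 1 and HSV 1, and each stimulus overlapped mock.

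Casp4, the inflammatory caspase that senses cytosolic lipopolysaccharide (ENSMUSG00000033538, chromosome 9, 5308828 to 5336783), had 152 and 21.1 CPM in G3-YSD 1 and 2 and 153 and 19.1 CPM in HSV 1 and 2, against 8.64 and 19.9 CPM in mock 1 and 2. HT-DNA 1 and 2 stood at 9.58 and 41.8 CPM, hpRNA 1 and 2 at 8.39 and 16.9 CPM, and cGAMP 1 and 2 at 8.82 and 45.6 CPM. G3-YSD lay above mock in both libraries, although G3-YSD 2 did so by a narrow margin, and HSV 2 lay just under mock 2. In G3-YSD 2 and HSV 2 Casp4 was near mock 2 while Zbp1 was far below it. Gsdmd, the pore-forming substrate of Casp4 (ENSMUSG00000022575, chromosome 15, 75862327 to 75867408), was scarce, with 7 to 42 counts a library. It had 2.03 and 2.58 CPM in HT-DNA 1 and 2, 1.88 and 1.62 CPM in hpRNA 1 and 2, and 1.51 and 2.21 CPM in cGAMP 1 and 2. It had 1.30 and 0.538 CPM in G3-YSD 1 and 2 and 2.02 and 1.90 CPM in HSV 1 and 2, against 1.99 and 1.71 CPM in mock 1 and 2. Both G3-YSD libraries were below mock, and the lower of them rests on 7 counts.

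Fas, the death receptor (ENSMUSG00000024778, chromosome 19, 34290666 to 34327772), had 10.6 and 2.23 CPM in G3-YSD 1 and 2 and 10.6 and 1.57 CPM in HSV 1 and 2, against 1.25 and 1.53 CPM in mock 1 and 2. HT-DNA 1 and 2 had 0.729 and 2.03 CPM, hpRNA 1 and 2 had 0.913 and 1.29 CPM, and cGAMP 1 and 2 had 0.595 and 1.75 CPM. The 179 and 173 counts of G3-YSD 1 and HSV 1 stood apart from 11 to 33 counts in the other 10 libraries. G3-YSD and HSV did not overlap mock, but HSV 2, with 19 counts, was above mock 2, with 25 counts, only by the scaling. Pmaip1, which encodes the BH3-only protein NOXA (ENSMUSG00000024521, chromosome 18, 66458533 to 66465565), had 0 to 4 counts in each library and 20 in all. A difference in Pmaip1 was not detectable at this depth. Its 0 counts in G3-YSD 2 and HSV 2 allow levels of up to 0.218 and 0.237 CPM, the value of 3 counts, and it had 2 counts in each mock library.

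**Figure D2:**
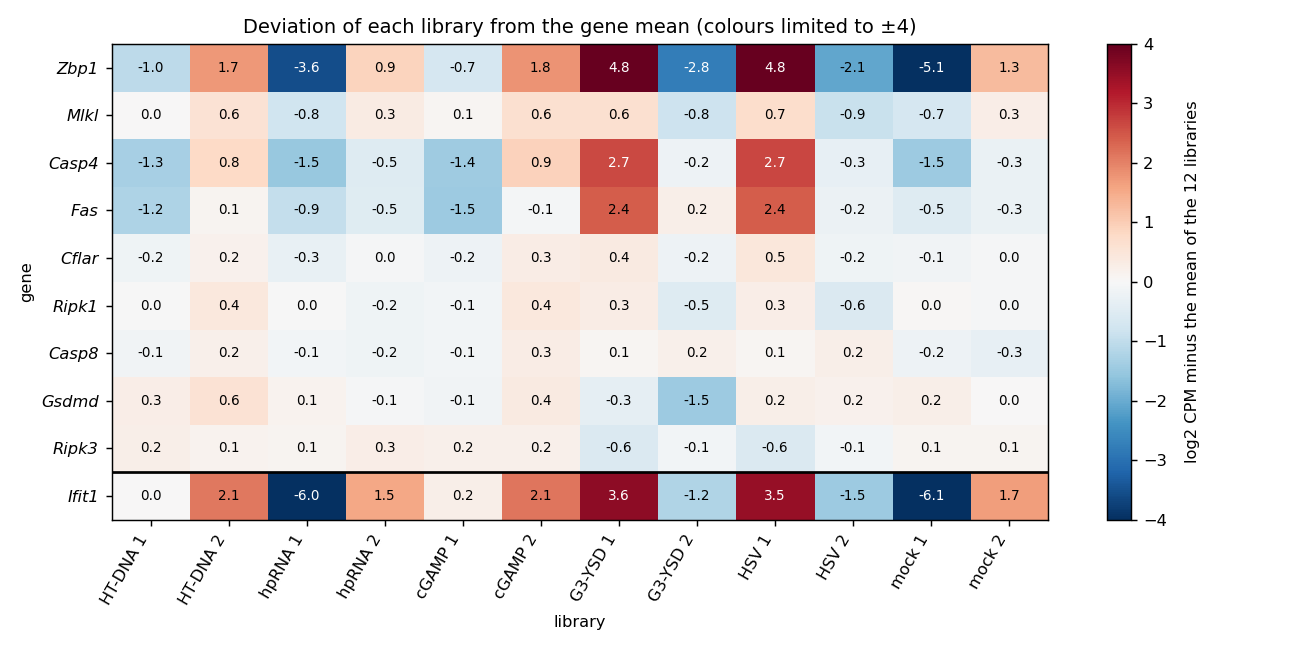
Log2 CPM of 9 members and Ifit1 (rows) in each library (columns), as the difference from the gene's mean over the 12 libraries, with a prior count of 2 and colours limited to ±4. Zbp1 and Casp4 are highest in G3-YSD 1 and HSV 1 and Ripk3 is lowest there, while Casp8 and Cflar keep within 0.46 of their means.

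Per kilobase of exon the order of the members was set by the necroptosis pair. Ripk3 averaged 55.0 ± 9.97 CPM per kb (SD over 12 libraries) and was first in 10 libraries, and Mlkl averaged 38.7 ± 15.2 CPM per kb and was first in the other 2, G3-YSD 1 and HSV 1, at 55.9 and 57.9 against 36.4 and 36.2 for Ripk3. Casp8 followed at 15.2 ± 2.17, Casp4 at 11.3 ± 14.3, Zbp1 at 9.65 ± 17.6, Cflar at 9.31 ± 1.75 and Ripk1 at 5.36 ± 1.14 CPM per kb. Fas averaged 1.42 ± 1.75, Gsdmd 0.747 ± 0.215 and Pmaip1 0.0360 ± 0.0258 CPM per kb. The ranges of mean ± SD overlapped for Ripk3 and Mlkl, for neighbours from Casp8 to Cflar, and for Fas and Gsdmd. This SD includes differences between labels and does not compare genes within a library. Zbp1 took any place from the second to the last. The scale divides by the union of annotated exons, 12669 bases for Cflar and 2062 for Fas, so long rare isoforms lower it.

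**Figure D3:**
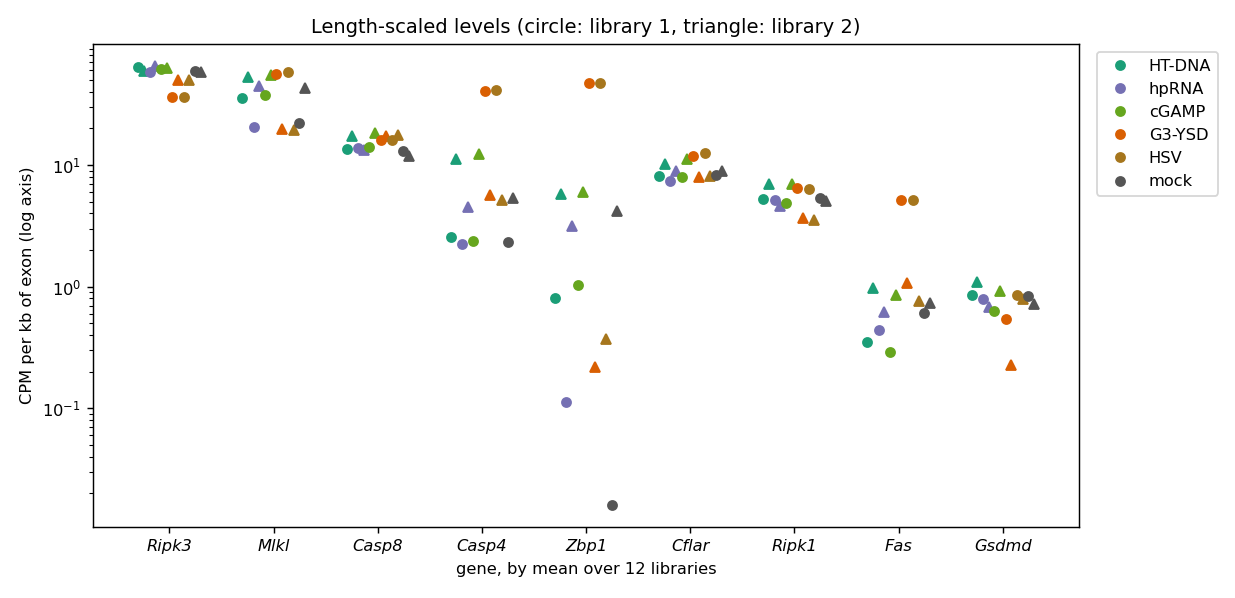
CPM per kilobase of exon (log axis) of 9 members in all 12 libraries, ordered by their mean (circle for library 1, triangle for library 2; Pmaip1, with libraries at 0, is left out). Ripk3 and Mlkl lead in most libraries, Zbp1 spans from 0.0161 in mock 1 to 47.1 in HSV 1, and Casp8, Cflar and Ripk1 keep a narrow band.

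The question of each comparison was which of these genes a stimulus changes relative to mock. edgeR's quasi-likelihood test over 16840 genes, with Benjamini-Hochberg adjustment and a threshold of 0.05, called 0 of the 9 tested members in each of the 5 comparisons. DESeq2 likewise called 0 members in each. At an unadjusted p under 0.05 there was 0 in HT-DNA, hpRNA and cGAMP and 1 in G3-YSD and in HSV, Casp8 in both. Over all 16840 genes that number was 62, 58 and 99 in HT-DNA, hpRNA and cGAMP and 4072 and 4092 in G3-YSD and HSV. Read against all genes, edgeR called 0% in HT-DNA, hpRNA and cGAMP, 5.16% in G3-YSD and 5.2% in HSV. DESeq2 called 0.00594% in HT-DNA and in hpRNA, 0% in cGAMP, 13% in G3-YSD and 13.5% in HSV. With spreads as wide as that of Zbp1, these tests cannot tell a large change from none. They also treat the 12 libraries as separate, although these come in near-identical pairs across labels. The standard errors and p-values given here may therefore be too small.

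In G3-YSD against mock the largest fold changes were those of Zbp1, Casp4 and Fas. Zbp1 had a log2 fold change of 3.50 ± 2.79 (SE; edgeR adjusted p = 0.454), Casp4 of 2.599 ± 1.34 (0.268) and Fas of 2.20 ± 1.04 (0.234). Casp8 stood at 0.42 ± 0.18 (adjusted p = 0.200), Cflar at 0.21 ± 0.29 (0.675) and Mlkl at 0.22 ± 0.67 (0.861). Ripk1 was at -0.05 ± 0.35 (adjusted p = 0.947), Ripk3 at -0.44 ± 0.20 (0.223) and Gsdmd at -0.99 ± 0.43 (0.207). The differences of Ripk3 and Casp8 were small but narrow, and those of Zbp1 and Casp4 large but wide. The median log2 fold change was 0.22 over the 9 members and 0.11 over all genes. Libraries did not overlap mock for 3 members above it (Casp8, Casp4 and Fas; 24.4% of all genes) and 2 below it (Ripk3 and Gsdmd; 22.7% of all genes). Without the filter on low counts Casp4 passed, at 2.55 with an edgeR adjusted p of 0.0220, as did 1894 of 33811 genes. Without G3-YSD 1 the value of Zbp1 turned to -3.26, that of Mlkl to -0.72 and that of Cflar to -0.11, Casp4 was at 0.55 and Fas at 0.67. Without mock 1 Mlkl was at -0.19, and without mock 2 Zbp1 was at 10.33. Without G3-YSD 2 Ripk1 turned to 0.29. Gsdmd was at -0.52 without G3-YSD 2 and at -1.78 without G3-YSD 1.

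HSV against mock gave values near those of G3-YSD, with the same mock libraries in both. Zbp1 had a log2 fold change of 3.51 ± 2.79 (SE; edgeR adjusted p = 0.452), Casp4 of 2.59 ± 1.34 (0.268) and Fas of 2.14 ± 1.03 (0.244). Casp8 stood at 0.43 ± 0.18 (adjusted p = 0.193), Cflar at 0.26 ± 0.29 (0.587) and Mlkl at 0.24 ± 0.67 (0.846). Ripk1 was at -0.09 ± 0.35 (adjusted p = 0.897), Ripk3 at -0.45 ± 0.20 (0.210) and Gsdmd at 0.09 ± 0.42 (0.915). Gsdmd and Casp4, which did not overlap mock in G3-YSD, overlapped it in HSV, and G3-YSD was not tested against HSV. The median was 0.26 over the members and 0.10 over all genes. Casp8 and Fas lay above mock in both HSV libraries (2 members; 24.7% of all genes) and Ripk3 below it (1 member; 22.8% of all genes). Without the filter on low counts Casp4 passed, at 2.54 with an edgeR adjusted p of 0.0220, as did 1892 of 33811 genes. Without HSV 1 the value of Zbp1 turned to -2.48, that of Mlkl to -0.77 and that of Cflar to -0.11, Casp4 was at 0.41 and Fas at 0.17. Without mock 1 Mlkl was at -0.16, without mock 2 Zbp1 was at 10.35, and without HSV 2 Ripk1 turned to 0.26. In both comparisons the value of Ripk1 turned positive with upper quartile scaling, under which the median of all genes was 0.24 in G3-YSD and 0.26 in HSV.

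For HT-DNA against mock the lowest unadjusted p-values were those of Casp8 at 0.31 ± 0.18, Gsdmd at 0.32 ± 0.41 and Mlkl at 0.44 ± 0.67 on the log2 scale. For hpRNA they were Casp8 at 0.12 ± 0.18, Ripk3 at 0.07 ± 0.20 and Fas at -0.33 ± 1.04, and for cGAMP Casp8 at 0.38 ± 0.18, Mlkl at 0.51 ± 0.67 and Casp4 at 0.93 ± 1.29. Each had an edgeR adjusted p of 1. The 9 members ranged from -0.02 to 0.84 in HT-DNA (median 0.31), from -0.34 to 0.12 in hpRNA (median -0.08) and from -0.25 to 0.93 in cGAMP (median 0.18), beside a median of all genes of 0.00 in each. HT-DNA did not overlap mock for Casp8, Ripk3 and Gsdmd (3 higher; 13.8% of all genes) and for 0 members lower (14% of all genes). For cGAMP 2 members, Casp8 and Ripk3, were higher (14.9% of all genes) and 0 lower (15.1%), and for hpRNA 1, Casp8, was higher (10.5%) and 0 lower (10.3%). Without cGAMP 2 the value of Casp4 turned to -0.70.

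**Figure D4:**
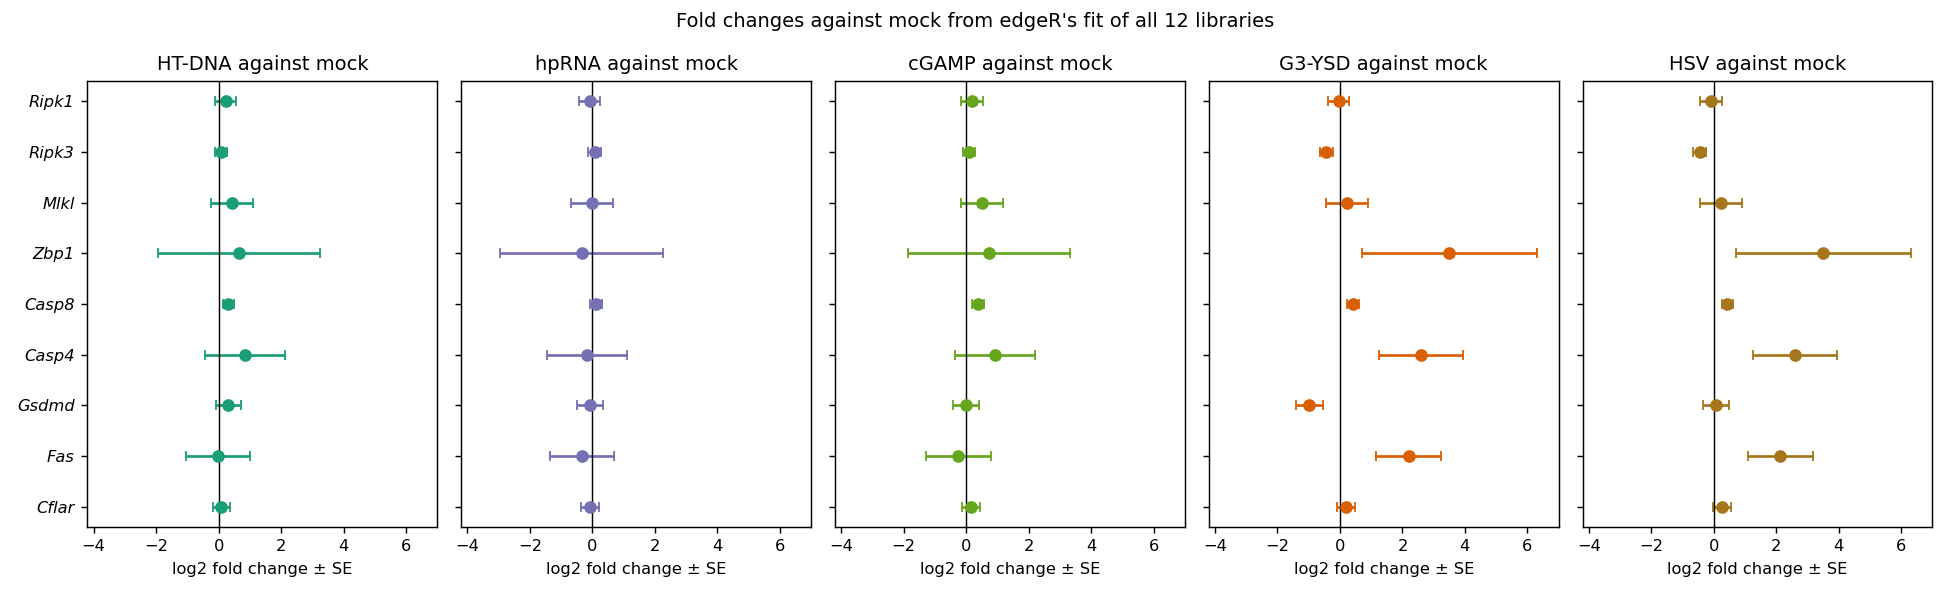
Log2 fold change of 9 members (rows; Pmaip1 was not tested) in each stimulus against mock, with standard errors as bars, from edgeR's fit of all 12 libraries. Zbp1, Casp4 and Fas lie furthest to the right in G3-YSD and HSV with wide bars, and Ripk3 lies at -0.44 and -0.45 there with narrow ones.

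Among 68 other genes of these pathways, 61 passed the filter on low counts. edgeR called 1 higher and 3 lower in G3-YSD against mock and 1 higher and 2 lower in HSV against mock, beside 1.79% of all genes higher and 3.37% lower in G3-YSD and 1.73% higher and 3.47% lower in HSV. Traf2, an adaptor that holds the ubiquitin ligases of TNF receptor signalling, rose to 116 and 96.6 CPM in G3-YSD 1 and 2 and to 118 and 94.96 CPM in HSV 1 and 2, against 61.2 and 66.5 CPM in mock 1 and 2. Its log2 fold change was 0.74 ± 0.16 in both comparisons, with edgeR adjusted p-values of 0.0380 and 0.0364. Tradd, the adaptor of the TNF receptor that recruits RIPK1, fell to 12.5 and 9.61 CPM in G3-YSD 1 and 2 and to 11.4 and 9.66 CPM in HSV 1 and 2, against 24.7 and 21.2 CPM in mock 1 and 2. Its log2 fold changes were -1.06 ± 0.21 and -1.12 ± 0.21, with edgeR adjusted p-values of 0.0291 and 0.0241. Ticam1, which encodes TRIF, the toll-like receptor adaptor that can bind RIPK1 and RIPK3, fell by 1.53 ± 0.35 in G3-YSD and by 1.61 ± 0.35 in HSV on the log2 scale, with edgeR adjusted p-values of 0.0473 and 0.0402. Its levels were 19.7 and 10.9 CPM in G3-YSD 1 and 2 and 19.1 and 9.83 CPM in HSV 1 and 2, against 40.6 and 48.2 CPM in mock 1 and 2. Casp9, the caspase of the apoptosome, was called lower in G3-YSD at -0.95 ± 0.22 (edgeR adjusted p = 0.04998) and was at -0.93 ± 0.22 in HSV (0.0524). All these calls treat near-identical libraries of different labels as separate, so their errors and p-values may be too small.

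By role, edgeR called 1 of 19 tested genes of the TNF receptor and ubiquitin arm higher and 1 lower in both comparisons. Of 5 tested genes grouped as death ligands, death and toll-like receptors and their adaptor, it called 1 lower, the adaptor Ticam1. None of 5 genes of Z-nucleic acid control and necroptosis execution, 10 inflammasome genes or 13 BCL2 family genes was called by edgeR, and of 9 caspases and apoptosome genes Casp9 alone was, in G3-YSD. At an unadjusted p under 0.05 there were 11 of the 61 in G3-YSD and 13 in HSV, beside 4072 and 4092 of 16840 genes. DESeq2 called 8 of the 61 in each comparison, 4 higher and 4 lower, beside 13% of all genes in G3-YSD and 13.5% in HSV. Among the 4 higher in G3-YSD were Tnfaip3 and Cyld of the TNF receptor and ubiquitin arm. Their DESeq2 adjusted p-values were 0.000222 and 0.00692, and their edgeR adjusted p-values 0.0536 and 0.0724. In HT-DNA, hpRNA and cGAMP against mock edgeR and DESeq2 called 0 of the 61, with 0 at an unadjusted p under 0.05. In a fit of the 4 libraries compared, the 4 calls in G3-YSD and the 3 in HSV were all lost. That fit called 0 of 14558 genes in G3-YSD and 0 of 14572 in HSV, so the loss is not particular to these genes. The calls were also lost without mock 1 or mock 2, and without G3-YSD 2 or HSV 2. There a label keeps a lone library, and fewer genes of any kind were called than with all 12 libraries. The median over the 61 genes was 0.00 in G3-YSD and in HSV.

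The 3 genes whose log2 CPM was most like each member over the 12 libraries were searched among 9742 genes. For Zbp1 they were Ifitm3, Trim34b and Bst2 (Pearson r of 0.994, 0.991 and 0.990), and for Mlkl Ifi35, Eif2ak2 and Parp10 (each 0.996). For Casp4 they were Xdh, Selenot and Psmb9 (0.994, 0.989 and 0.987), for Fas Vwa5a, Zup1 and Hist1h1c (0.982, 0.979 and 0.979), and for Cflar Eppk1, Psmb8 and Fndc3a (0.989, 0.981 and 0.979). For Ripk3 they were Ankrd26, Uba3 and Got1 (0.989, 0.988 and 0.988) and for Ripk1 Gen1, Rffl and Abhd2 (0.953, 0.949 and 0.938). Casp8 was most like Socs3, Furin and Loxl4 (0.926, 0.916 and 0.908), and Gsdmd, which is near the limit of counting, like Fam210b, Mbip and Zfp574 (0.850, 0.785 and 0.783). Among the members themselves Casp4 and Fas were most alike at 0.94, and Ripk3 ran opposite to Fas at -0.91. With libraries in near-identical pairs these values rest on fewer than 12 separate points.

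Markers of other cell types were followed because macrophages express Casp4, Gsdmd and Zbp1. The 6 macrophage markers had a summed level of 73.9 and 93.4 CPM in G3-YSD 1 and 2 and of 82.2 and 96.1 CPM in HSV 1 and 2, against 94.8 and 97.2 CPM in mock 1 and 2. Cd68 and Lyz2 made up most of this sum, and Ptprc, Adgre1, Csf1r and Itgam had medians under 1 CPM, none of them at 0 in all libraries. The macrophage sum was 84.0 to 105 CPM in the other 6 libraries, and its part in the results was not tested. The summed level of the 3 endothelial markers was 11.1 and 3.08 CPM in G3-YSD 1 and 2 and 8.77 and 3.80 CPM in HSV 1 and 2, against 0.512 and 0.244 CPM in mock 1 and 2. The 4 epithelial markers reached 4.54 CPM in HSV 2 and the 3 T cell markers 1.84 CPM in HSV 1. The endothelial, epithelial and T cell sums were higher in all 4 G3-YSD and HSV libraries than in the other 8, as was the number of detected genes. For T cells the margin was narrow, with 0.9996 CPM in G3-YSD 2 against 0.983 CPM in HT-DNA 2. The part of these sums in the results above was not tested.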

How the data were processed

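Each library has its own deposited file of unnormalized read counts by Ensembl ID. Per the submitters' processing notes HISAT2, HTSeq and mm10 were used, while no annotation release or strand setting is named in the sources used here. The authors' counts were analysed as deposited, with 12650790 to 18912400 counts per library. Of 54532 gene IDs, 54409 matched GENCODE M21 (same assembly), the source of symbols, positions and exon lengths.

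Genes were filtered with edgeR's filterByExpr, which left 16840, and scaled by TMM. A quasi-likelihood model across all genes (R 4.3.3, edgeR 4.0.16; 1 term per label, 12 libraries, 6 residual degrees of freedom) tested each stimulus minus mock, with Benjamini-Hochberg adjustment. Errors of edgeR's fold changes are standard errors worked back from the test, as the absolute log2 fold change over the square root of the F statistic. Both these errors and the 6 residual degrees of freedom treat the libraries as independent, although the libraries come in near-identical pairs across labels. Alternatives were DESeq2 1.42.0, other scalings, no filter, fewer libraries and a replicate block. The noise ratio used genes with at least 100 counts in a pair, and the genes most like a member needed a mean of 5 CPM.

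The members, the list of 68 other genes and the naming rule were chosen with earlier results of these data known. The rule names all members, fold changes for G3-YSD and HSV, the 3 lowest unadjusted p-values elsewhere, and called list genes. The NF-kB letters were narrowed after a looser form was seen to match widely.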

Additional observations from a re-analysis of the deposited data

Results flagged for a closer look

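Ripk3 was higher than both mock libraries in HT-DNA and cGAMP, with log2 fold changes of 0.0784 and 0.0818, and lower than both in G3-YSD and HSV, with -0.44 and -0.45. Every library of the first pair of labels thus lay on one side of mock and every library of the other pair on the opposite side, and the difference was not tested. The 2 mock libraries lay within 1 CPM of each other, at 135 and 134 CPM, so small differences are enough to place a library on one side.

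Gsdmd was above both mock libraries in HT-DNA, with a log2 fold change of 0.32, and below both in G3-YSD, with -0.99. This difference was not tested either, and it rests on 39 and 42 counts in HT-DNA and 22 and 7 counts in G3-YSD.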

How the results depend on the processing

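Called members numbered 0 in all 5 comparisons with DESeq2, other scalings, the 4 libraries alone and the block that pairs equal replicate numbers. The 4 libraries alone called 0 genes of any kind in each comparison, as did the block over 4 libraries in G3-YSD and HSV. In HT-DNA, hpRNA and cGAMP edgeR also called 0 of 16840 genes with each other scaling. Such fits say nothing particular to the members. With other scalings edgeR called 651 to 839 genes in G3-YSD and HSV. Counts of members with 1 library left out are not given, since a label then keeps a lone library. The count of called members was 1 (Casp4) in G3-YSD and in HSV with no filter on low counts, where 1894 and 1892 of 33811 genes were called. The 8 libraries without G3-YSD and HSV, a setting chosen after seeing the data, gave 0 in HT-DNA, hpRNA and cGAMP, where 0 of 14543 genes were called.

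Called genes of the wider list numbered 4 in G3-YSD and 3 in HSV, beside 869 and 876 of 16840 genes. They were 2 in G3-YSD with DESeq2's size factors (805 of 16840) and 8 in both with DESeq2 (2191 and 2267). They were 6 in HSV with no filter (1892 of 33811). With the 4 libraries alone they were 0 in both, as were all genes called. Leaving out a library lowered the count or left it unchanged, with a lone library in a label and fewer genes of any kind called. With the replicate block over 12 libraries the count was 6 in G3-YSD and in HSV, beside 1211 and 1214 of 16840 genes. Over 4 libraries it was 0 in both, beside 0 genes of any kind. Over 8 libraries it was 1 (Tlr3) in HT-DNA and in cGAMP, beside 14 and 23 of 14543 genes. Same-numbered libraries of a stimulus and mock deviated together at a correlation of 0.37 to 0.65 in HT-DNA, hpRNA and cGAMP, and at -0.36 in G3-YSD and HSV, and what a number marks is not labelled. The crossed pairing of G3-YSD and HSV with mock, chosen after seeing the data, called 2 members in each, and 7 list genes in G3-YSD and 6 in HSV, beside 984 of 14558 and 999 of 14572 genes.

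Fold changes that turned sign were all uncalled. With upper quartile scaling Ripk1 was 0.0740 in G3-YSD and 0.048 in HSV. With 1 library left out Ripk1 ranged from -0.52 to 0.29 in G3-YSD and -0.57 to 0.26 in HSV, Mlkl from -0.72 to 0.76 and -0.77 to 0.82, Zbp1 from -3.26 to 10.33 and -2.48 to 10.35, and Cflar from -0.11 to 0.45 and -0.11 to 0.54. Gsdmd in HSV ranged from -0.0171 to 0.19, Ripk3 in hpRNA from -0.0215 to 0.16 and Casp4 in cGAMP from -0.70 to 1.67. Ripk3 in G3-YSD and HSV kept its sign at -0.70 to -0.23 and -0.71 to -0.25, and Casp8 at 0.35 to 0.48 and 0.34 to 0.49. The causes were not tested. A lone library left in a label was assumed to vary like the other labels. Depth limits Gsdmd, Fas and Pmaip1.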
